A study of Danio rerio with 4 samples.

Results

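The p53 pathway genes described here are mdm2, cdkn1a, ccng1, baxa, casp3a and casp8, chosen by name, with every probe set whose single gene symbol is one of them. Of the 6 genes, 4 had a probe set (mdm2, ccng1, baxa and casp8), 1 each, out of 15502 probe sets and 8793 named genes on the array. No probe set named for cdkn1a or casp3a was used, and these 2 genes are not analysed here. RNA came from hearts with the tissue around them, drawn by syringe from wild-type zebrafish embryos at 48 hours post fertilization. One group of embryos had been kept in 10 μM SU5402, an inhibitor of the tyrosine kinase of fibroblast growth factor (FGF) receptors, and the other group, its siblings, in 1% DMSO. A vial held 3 mL and at most 20 embryos. Each group had 2 replicates and each replicate 1 Affymetrix Zebrafish array, 4 arrays in all. The start and length of the treatment, and whether the replicates came from separate clutches, are not given in the labels, so the spread behind each p-value is that between these arrays and may be technical only.

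The transcription factor p53 is held at a low level in healthy cells by Mdm2, the ubiquitin ligase that marks it for degradation and that is itself encoded by a p53 target gene. When DNA is damaged or the nucleolus is stressed, p53 accumulates and switches on genes that stop the cell cycle, such as cdkn1a, which encodes the kinase inhibitor p21, and genes that open the mitochondrial route to apoptosis, such as baxa and bbc3. Caspase 8 starts the separate route from death receptors, and both routes meet at executioner caspases such as caspase 3. In zebrafish embryos in which p53 is active, mdm2, cdkn1a and ccng1 are among the transcripts known to rise. The amount of p53 protein is set mainly after transcription, so its activity is commonly read from such target genes. Roles named below are those known from mammals unless zebrafish is stated.

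None of the 4 measured members differed between the SU5402 and DMSO arrays by more than the spread allowed for. In limma over all probe sets, 0 of the 4 had an adjusted p under 0.05, where the share called over the whole array was 0%, and 0 of the 4 had an unadjusted p under 0.05, where it was 13%. Their differences (SU5402 minus DMSO, as log2 of the intensity plus 16) ran from -0.11 to 0.41 with a median of 0.18. The median over all probe sets was -0.01. In 1 of the 4, baxa, the groups did not overlap, as in 44% of all probe sets (45.6% of named genes), and the SU5402 pair was the higher one, as in 22.2% (19.3% of named genes). Only ccng1 and baxa were read above background on every array, so the measurement of the pathway rests on these 2 genes and, less firmly, on mdm2. Intensities below 136, the 95th percentile of 17 Tag control probe sets that have no target in zebrafish RNA, are called below background here. The added 16 understates differences of dim genes. In these bulk samples, fewer cells of a type and less RNA per cell cannot be told apart.

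The probe set of mdm2, the ubiquitin ligase gene and p53 target, read an intensity of 122 and 144 in replicates 1 and 2 of DMSO and 165 and 88.2 in those of SU5402. The SU5402 arrays were thus the highest and the lowest of the 4, on either side of both DMSO arrays, and 2 of the 4 arrays lay above background. Group means were 7.21 ± 0.15 in DMSO and 7.10 ± 0.56 in SU5402 (log2, SD, n = 2 each). The difference was -0.11 (SE 0.38, 95% limma interval -1.05 to 0.83, adjusted p = 0.938 in limma). Both means lay just below background (log2 7.25), so no fold is given for mdm2. Without SU5402 replicate 2 the difference was 0.29, and without SU5402 replicate 1 it was -0.51. The direction for mdm2 therefore turns on which SU5402 array is used.

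Cyclin G1, encoded by ccng1, binds a phosphatase that acts on Mdm2, and its gene is a p53 target. The probe set of ccng1 read 4572 and 2885 with DMSO, against 3977 and 5835 with SU5402. The lower SU5402 array lay between the DMSO arrays, so the groups overlapped, and the DMSO arrays were 0.66 log2 units apart and the SU5402 arrays 0.55. The means were 11.83 ± 0.47 and 12.24 ± 0.39 (log2, SD, n = 2 each), a difference of 0.41 (SE 0.39, interval -0.55 to 1.36, adjusted p = 0.731 in limma). The interval runs from 0.684 to 2.56 times the DMSO level. Of the 4 members, ccng1 had the largest difference, and 45.9% of all probe sets had a larger one in either direction. Without DMSO replicate 2 it was 0.08 and without DMSO replicate 1 it was 0.74, while leaving out SU5402 replicate 2 or 1 gave 0.13 or 0.68. The size of the ccng1 difference thus turned on single arrays of both groups.

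Bax, the product of baxa, forms pores in the outer mitochondrial membrane during apoptosis. The probe set of baxa read 1084 and 1064 with DMSO, against 1162 and 1118 with SU5402. All 4 readings were nearly alike, with the SU5402 arrays above the DMSO arrays by a gap of 0.04 log2 units. The means were 10.09 ± 0.02 and 10.17 ± 0.04 (log2, SD, n = 2 each), and the difference was 0.08 (SE 0.30, interval -0.64 to 0.81, adjusted p = 0.939 in limma), or 1.06-fold. The SE is wider than the baxa readings alone would give, because limma draws each probe set's spread towards that of all probe sets. Over all probe sets, 86.8% differed by more than baxa did. With any 1 array left out the difference stayed between 0.06 and 0.11.

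The caspase 8 gene, casp8, was below background on all 4 arrays. Its probe set read 9.65 and 3.76 with DMSO, against 7.38 and 16 with SU5402, and the groups overlapped. The fitted difference of 0.28 (SE 0.34, adjusted p = 0.793 in limma) compares background readings, and no fold is given. Whether casp8 transcripts were present at a low level was not detectable with this probe set.

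**Figure D1:**
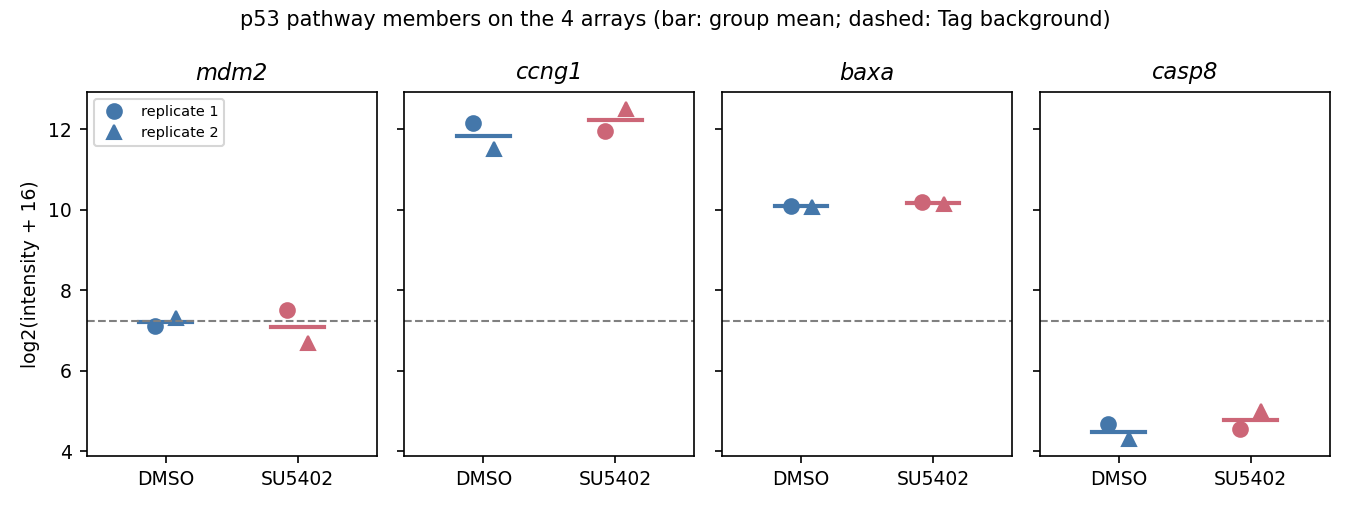
Intensities of the 4 measured p53 pathway members, as log2(intensity + 16), in the DMSO and SU5402 arrays, with replicate 1 as circles, replicate 2 as triangles, bars at group means and a dashed line at the Tag background (log2 7.25). Only baxa shows SU5402 arrays both above the DMSO arrays, by 0.04, and casp8 lies below the dashed line on all 4 arrays.

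The treatment was visible in etv5b, a direct target of FGF signalling, which read 1975 and 2595 with DMSO, against 132 and 143 with SU5402 (difference -3.90, SE 0.32, unadjusted p = 2.08e-05 and adjusted p = 0.255 in limma). Markers of heart muscle were present, with 9 of 12 listed genes measured and 8 of these higher in SU5402 (88.9%, beside 43.8% of all genes). Their summed intensity in replicates 1 and 2 was 15116 and 7288 in DMSO and 36032 and 30411 in SU5402. The 9 include the cardiac factor genes tbx5a, nkx2.5 and gata4, which were below background on every array. A direction counted for these compares background readings. Summed markers of neurons and glia (10 genes) were 16286 to 18745 in DMSO and 23853 to 42623 in SU5402. Of the 10, 9 were higher and 1 lower. The lower was the glial gene gfap (158 and 135 against 127 and 69.3), above background in 1 array. The SU5402 arrays of fabp7a lay on either side of its DMSO arrays (878 and 837 against 1980 and 548). Summed markers of cartilage and fin mesenchyme (12 genes) were 35362 to 53939 and 1850 to 6332. Those of endothelium (5 genes) were 1667 to 1835 and 791 to 1127. Of these 5, 3 were lower (60%, beside 56.2% of all genes) and 2 higher, and tie1 was below background on every array. Those of red blood cells (8 genes) were 11883 to 14394 and 13326 to 15244. Most of each red blood cell sum was hbae3 (10009 and 12620, then 11503 and 13028), and 3 of the 8 genes were below background on every array. Summed markers of liver and yolk (9 genes) were 3656 to 4005 and 7074 to 8814. All 9 were higher, and 3 were below background on every array. In 1 of the 9 the groups did not overlap, or 11.1% beside 45.6% of all genes. The liver gene tfa read 396 and 230 in DMSO and 3446 and 447 in SU5402, and apoa2 read 665 and 274, then 1719 and 476. The SU5402 sum was 7074 in replicate 1 and 8814 in replicate 2, so other genes made up most of the latter. The 2 SU5402 sums thus rested on different genes. Skin markers (11 genes) summed to 53814 and 57153 in DMSO, to 22774 in SU5402 replicate 1 and to 69117 in SU5402 replicate 2. Myeloid markers (8 genes, 5 of them below background on every array, among them mpx and spi1b) summed to 1473 to 1838 and 1050 to 1968, and those of skeletal muscle (8 genes) to 1886 to 4350 and 3300 to 3409. The largest part of the skeletal muscle sum was ckma (1255 and 2224, then 2992 and 2375). Of the 8 genes 6 were lower (75%, beside 56.2% of all genes) and 2 higher, with a median of -0.69. No marker was at 0. The part of tissue makeup in the values of the p53 pathway was not tested. The SU5402 arrays correlated at r = 0.928 across probe sets and the DMSO arrays at 0.964, and probe sets are not independent replicates.

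The genes whose readings lay closest to a member's, by Euclidean distance over the 4 arrays after centring each gene on its mean, were sought among 5088 other genes above background on every array. For ccng1 they were rgs4 (distance 0.09 log2 units), mlst8 (0.16) and smim7 (0.20), each lowest in DMSO replicate 2 and highest in SU5402 replicate 2, as ccng1 was. For baxa they were psmf1, brpf1 and apoob (0.03, 0.03 and 0.04), which also read nearly alike on all arrays. With 4 arrays, many genes lie close to any profile by this measure. No such search was made for mdm2 or casp8, which were not above background throughout.

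The wider network was read from 6 lists of genes around p53. They hold 193 genes beside the members, of which 118 were measured, each by its brightest probe set. Of these, 0 had an adjusted p under 0.05 in limma, as of all genes (0%). At an unadjusted p under 0.05, 5 were higher and 18 lower, 23 of 118 or 19.5%, beside 13.4% of all 8793 genes (5.31% higher and 8.04% lower). The list of cell cycle genes, which holds genes of mitosis as well as of the G1 and S phases, supplied 12 of the 18 lower ones. Outside that list 11 of 89 genes had an unadjusted p under 0.05, 5 higher and 6 lower, or 12.4%, close to the share over all genes, and the median difference was 0.05 beside -0.08 over all genes. With 1 array left out these counts moved, as did those of each list and of all probe sets. In such settings the lone array of a group is assumed to vary as the other group's pair does. Counts of single lists are therefore not given for them, and medians are given in their place.

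**Figure D2:**
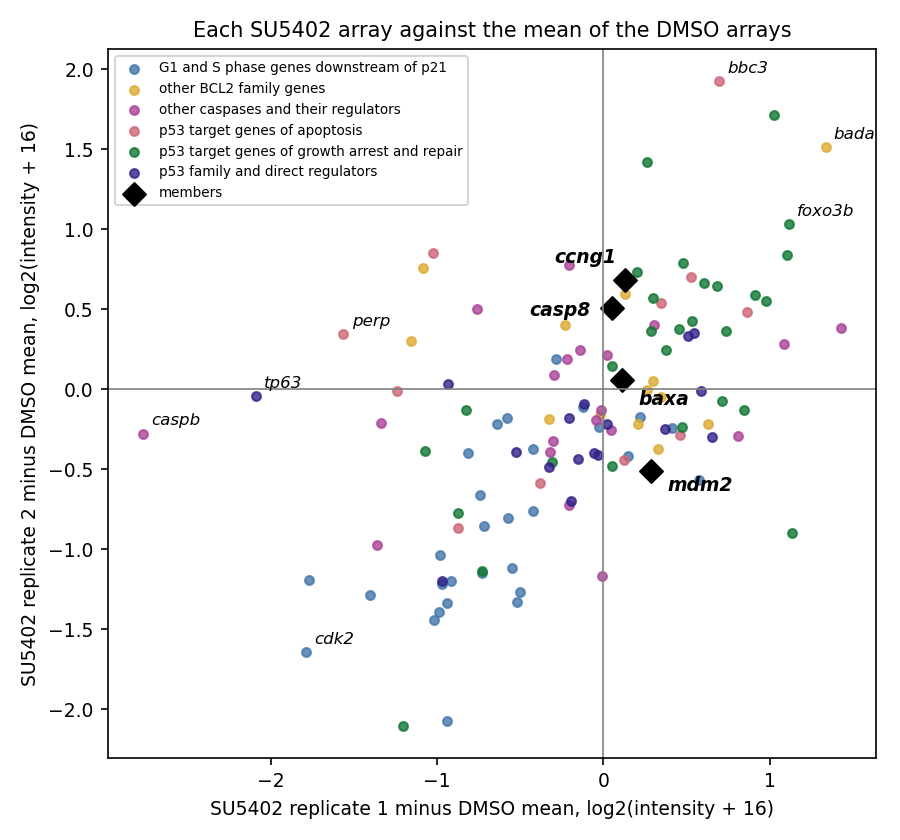
Each SU5402 array against the mean of the DMSO arrays for the 118 list genes (circles, each drawn once in the colour of a list that holds it) and the 4 members (black diamonds), on the log2(intensity + 16) scale, with replicate 1 on the x axis and replicate 2 on the y axis. Both axes share the DMSO mean. The members lie near the centre, mdm2 with opposite signs on the 2 axes (0.29 and -0.51) and ccng1 away from 0 mainly in replicate 2 (0.13 and 0.68), while genes of the cell cycle list lie mostly below 0 on both.

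Among p53 relatives and regulators, 17 of 23 listed genes were measured, with a median of -0.22. There were 5 higher and 12 lower (70.6%, beside 56.2% of all genes). Of the 17, 1 had an unadjusted p under 0.05, or 5.88% beside 13.4% of all genes. The p53 homologue gene tp63, which is needed for the epidermis, read 913 and 1858 in DMSO and 294 and 1264 in SU5402 (difference -1.07, SE 0.73, adjusted p = 0.609 in limma), with overlapping groups. Its lowest reading fell in SU5402 replicate 1, the array with the lowest sum of skin markers. The gene tp63 is itself 1 of the 11 genes in that sum. Without SU5402 replicate 1 the difference was -0.04. A second probe set of tp63 was at -0.24 and below background. The other homologue gene, tp73, was below background on all arrays (12.5 and 14.6, then 10.6 and 5.78).

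The gene of the Mdm2 partner that restrains p53, mdm4, read 854 and 1074 in DMSO and 826 and 845 in SU5402. Both SU5402 arrays lay below both DMSO arrays, by little, with a difference of -0.19 (SE 0.31, interval -0.96 to 0.57, adjusted p = 0.851 in limma). The checkpoint kinase gene chek1 had the lowest p of this list, at 432 and 421 against 210 and 176 (difference -1.09, SE 0.30, adjusted p = 0.267). The phosphatase gene ppm1db, of the Wip1 family that switches p53 off, was at 412 and 441 against 612 and 540 (0.42, adjusted p = 0.628), and ccdc106b was below background on all arrays. With any 1 array left out the median of the list stayed between -0.25 and -0.12.

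Of 47 genes listed as p53 targets of growth arrest and repair, 31 were measured. The list is broader than its name. The measured genes include gpx1a, gpx1b, sod2, aldh4a1 and tigarb, which act in redox balance or metabolism. They also include the p21 relatives cdkn1bb and cdkn1ca, which the cell cycle list holds too. In SU5402 22 were higher (71.0%, beside 43.8% of all genes) and 9 lower, with a median of 0.32 beside -0.08 over all genes. At an unadjusted p under 0.05, 3 were higher and 4 lower, or 22.6% beside 13.4% of all genes. None passed the adjusted threshold in limma. The forkhead factor gene foxo3b, listed for its link to p53 in stress, read 1436 and 1266 in DMSO and 2940 and 2773 in SU5402, which did not overlap (difference 1.07, SE 0.30, 2.10-fold, adjusted p = 0.267). A second probe set of foxo3b, below background, was at -0.19. The ubiquitin-like gene isg15, best known as an interferon target, was at 37.3 and 58.1 against 112 and 190, above background in 1 array (1.37, SE 0.38, adjusted p = 0.267).

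Pcna, the sliding clamp of DNA replication to which p21 binds, read lower. Its gene pcna was at 10366 and 8392 in DMSO and at 4587 and 3424 in SU5402 (difference -1.23, SE 0.33, 2.35-fold lower, adjusted p = 0.265 in limma). The damage recognition gene ddb2 was below background on all arrays, so its difference of -1.66 compares background readings. The other 3 with an unadjusted p under 0.05, named after their values were seen, split in direction. The growth arrest gene gadd45ga was at 314 and 406 against 787 and 650 (0.97). Its relative gadd45ab was at 281 and 252 against 154 and 112, the last below background (-0.93). The Polo-like kinase gene plk2b was at 324 and 457 against 202 and 218 (-0.82). Without DMSO replicate 1 the median of the list was 0.16, and leaving out any 1 array kept it between 0.16 and 0.45. With a pseudocount of 64 or an intensity trend, 5 genes were higher at an unadjusted p under 0.05. Over all probe sets the count at that level ran from 1490 to 2582 in the settings that kept all arrays. With readings below background raised to it, the median was 0.14.

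Of 26 listed p53 targets that act in apoptosis, 14 were measured, with a median of -0.14. There were 5 higher and 9 lower (64.3%, beside 56.2% of all genes). In each direction 1 had an unadjusted p under 0.05, or 14.3% of the list beside 13.4% of all genes. The gene bbc3, which encodes Puma, the BH3-only protein through which p53 chiefly triggers apoptosis, read 159 and 185 in DMSO and 288 and 696 in SU5402. Both SU5402 arrays were higher, with the 2 of them far apart (difference 1.31, SE 0.47, interval 0.16 to 2.46, unadjusted p = 0.0318 and adjusted p = 0.344 in limma). Without SU5402 replicate 2 the difference was 0.70, and without SU5402 replicate 1 it was 1.92. The gene triap1, whose product restrains apoptosis, was at 228 and 208 against 112 and 112, the last 2 below background (-0.87, SE 0.30, adjusted p = 0.328).

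The death receptor gene fas was below background on all arrays (70.6 and 71.3, then 109 and 125), and tnfrsfa was above it in 1 array only (71.7 and 90.0, then 160 and 119). Other probe sets, all below background on every array, had differences of -1.08 and 0.10 for tnfrsfa and -0.04 for fas. Named after their values were seen, the BH3-only gene pmaip1 (Noxa) was at 235 and 362 against 114 and 290, and the junction gene perp, a p53 and p63 target in epidermis, at 6499 and 7887 against 2411 and 9082. In these probe sets both were lowest in SU5402 replicate 1, as the skin marker sum was, and both had overlapping groups. Second probe sets, below background on every array, were highest in SU5402 replicate 1, with differences of 1.2 for pmaip1 and 0.62 for perp. Without SU5402 replicate 1 the list's median turned to 0.41, and without SU5402 replicate 2 it was -0.36.

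Caspases other than the members, with their activators and inhibitors, had 20 of 35 listed genes measured, with a median of -0.10. There were 7 higher and 13 lower (65%, beside 56.2% of all genes). Only dffb, the gene of the nuclease that cuts DNA in dying cells, had an unadjusted p under 0.05. That is 5% of the list, beside 13.4% of all genes. The dffb probe set was below background on all arrays (113 and 62.2, then 23.0 and 34.9). The caspase 2 gene casp2 was also below background throughout, and the gene of its adaptor, cradd, was above background in 1 array. The inflammatory caspase gene caspb was at 1090 and 2502 in DMSO and at 229 and 1361 in SU5402 (difference -1.52, SE 0.86, adjusted p = 0.525 in limma). Its groups overlapped, and its low reading fell again in SU5402 replicate 1. Without that array caspb was at -0.28, and a second probe set was at -1.05 with all arrays. The median of the list stayed between -0.18 and -0.10 with any 1 array left out.

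The list of the BCL2 family holds 28 genes beside baxa, among them bcl10 and the BAG genes, which are not of that family. Of the 28, 13 were measured, with a median of 0.09. There were 7 higher (53.8%, beside 43.8% of all genes) and 6 lower. These counts and the median include bag4, bag5 and bag6, at -0.02, 0.13 and -0.0037. The BH3-only gene bada, whose product promotes apoptosis by binding the protective family members, read 353 and 396 in DMSO and 969 and 1098 in SU5402. The groups were well apart (difference 1.42, SE 0.30, interval 0.68 to 2.17, 2.69-fold, unadjusted p = 0.00351 and adjusted p = 0.255 in limma), and with any 1 array left out the difference ran from 1.34 to 1.51. By its brightest probe set, no other gene of this list had an unadjusted p under 0.05 or groups that did not overlap. That left 7.69% of the list in both counts, beside 13.4% and 45.6% of all genes. Named after its values were seen, a dimmer probe set of bcl2l13, above background on all arrays, did not overlap (577 and 506 against 673 and 729, difference 0.37, SE 0.30). The brightest of bcl2l13 was at -0.09. A dimmer probe set of badb, below background, was also higher without overlap. The protective genes mcl1a and mcl1b were at 0.36 and -0.43 (SE 0.37 and 0.55), and bida, whose product links caspase 8 to Bax, was at -0.26 (SE 0.34). Leaving out 1 array moved the median of the list between -0.0053 and 0.21.

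**Figure D3:**
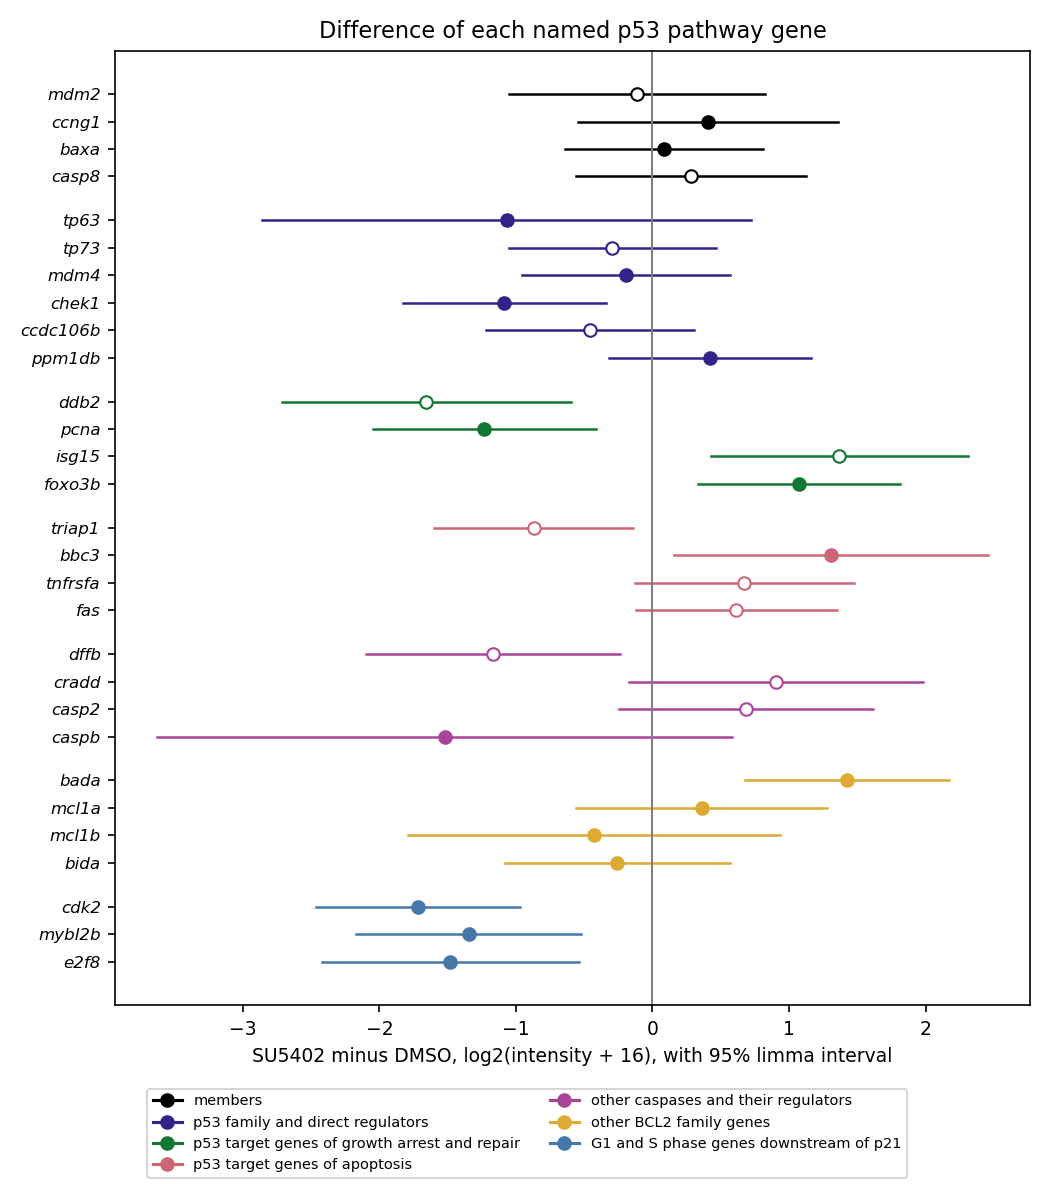
Difference between SU5402 and DMSO on the log2(intensity + 16) scale, with 95% limma intervals, for the 4 members and the named genes of the 6 lists. Open circles mark genes whose mean lay below the Tag background in at least 1 group. The intervals of all 4 members, which were chosen by name, include 0. Among filled circles those of bada, bbc3, foxo3b, chek1, pcna, cdk2, mybl2b and e2f8 do not. These were drawn because their p was among the lowest of their lists in these same data, so they are no comparison for the members. No gene drawn had an adjusted p under 0.05 in limma.

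The cell cycle list holds cyclins and their kinases, E2F and related factors, pocket proteins and kinase inhibitors. It also holds genes of mitosis, such as ccnb1, cdk1, cdc20 and plk1, and top2a and foxm1. The list is thus one of the cell cycle in general, with genes that drive and genes that restrain division, and is not particular to p21. Of its 41 genes 29 were measured, 26 lower (89.7%, beside 56.2% of all genes) and 3 higher, with a median of -0.79. In 21 of the 29 both SU5402 arrays lay below both DMSO arrays, against 26.3% of all genes, and 12 had an unadjusted p under 0.05, all lower, against 8.04%. None passed the adjusted threshold in limma. The kinase gene cdk2 read 1633 and 1420 in DMSO and 430 and 476 in SU5402 (difference -1.72, SE 0.30, 3.28-fold lower, adjusted p = 0.255).

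The B-Myb gene mybl2b, a factor of the cell cycle, was at 805 and 553 against 242 and 265 (-1.35, SE 0.33, adjusted p = 0.258 in limma), and the repressor gene e2f8 at 443 and 677 against 149 and 231 (-1.48, SE 0.38, adjusted p = 0.261). The median of the list stayed between -0.86 and -0.64 with any 1 array left out. The list also holds cdkn1bb and cdkn1ca, relatives of cdkn1a named after their values were seen, at -0.12 (SE 0.30) and 0.0037 (SE 0.45).

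**Figure D4:**
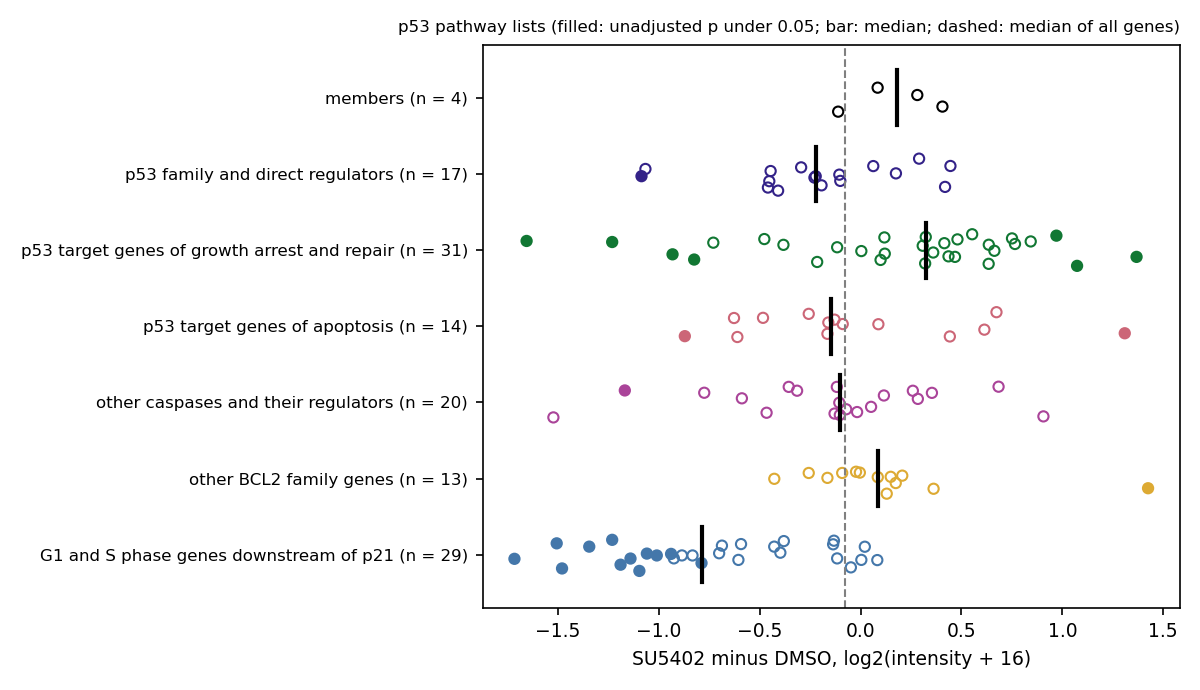
Differences between SU5402 and DMSO (log2(intensity + 16) scale) of the 4 members and of the measured genes of each list, 1 circle a gene, filled where the unadjusted p was under 0.05, with a bar at each median and a dashed line at the median of all genes (-0.08). The members' median is 0.18 with 0 filled circles, and the growth arrest list lies at 0.32 with filled circles on both sides. The cell cycle list lies at -0.79 with 12 filled circles, all lower. The genes pcna, cdkn1bb and cdkn1ca are in both the growth arrest and the cell cycle list.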

How the data were processed

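The authors deposited linear intensities, with each probe set summarised to 1 value on each array; how this was done is not given in the sources used here. The trimmed mean was 500.1 on every array, so the authors had scaled the arrays to it. All 4 columns belong to these arrays. Arrays have no depth, and their number limits the precision. Of 15502 probe sets (115 controls left out), 10795 had 1 symbol, 10711 of these updated through Entrez identifiers, 135 had several and 4572 none.

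Values were taken to log2(value + 16) without filtering and fitted with limma 3.58.1 (R 4.3.3), treatment as the single term, with Benjamini-Hochberg adjustment over all probe sets, two-sided, at 0.05. The fit was also run on simulated data with independent errors, a setting that cannot vouch for the p-values of these arrays. The brightest probe set stood for a list gene. Beside the members, tp63, tp73, mdm4 and etv5b were named outright, and so were up to 4 genes of each p53 list with the lowest p, and the 3 genes nearest to each member above background on all arrays. For the marker lists sums are given, with values of a few genes. Of these genes gfap, fabp7a, ckma and hbae3 were named after their values were seen. The others were among the 3 with the lowest p in their list. Members and lists were chosen with earlier results of these data known. A permutation of 2 against 2 arrays is too small for a test at 0.05. Alternatives were a replicate block, each array left out, pseudocounts of 1 and 64, quantile normalisation, median centring, cyclic loess, a filter on the dimmest 25%, a floor at the Tag background, an intensity trend, averaging a gene's probe sets and an adjusted p under 0.10.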

Additional observations from a re-analysis of the deposited data

How the results depend on the processing

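In every alternative run 0 of the 4 members passed the adjusted threshold, including at an adjusted p under 0.10, and 0 had an unadjusted p under 0.05. The difference of mdm2 turned from -0.11 to 0.090 with the floor at the Tag background and ran from -0.51 to 0.29 with 1 array left out. Those of ccng1, baxa and casp8 kept their sign wherever they gave a value; casp8 gave none with the floor or with the dimmest 25% left out. Over all probe sets, 0 passed the adjusted threshold, 0 to 3 with 1 array left out and 21 with the floor, none of these in a member or a p53 list gene, and the 2008 at an unadjusted p under 0.05 ran from 951 to 3011 with 1 array left out. Among the 118 list genes the counts at that level ran from 1 to 8 higher and 5 to 24 lower. Leaving out 1 array turned the medians of the apoptosis targets (-0.36 to 0.41) and of the BCL2 family list (-0.0053 to 0.21). It also turned mcl1b (-1.16 to 0.30), bida (-0.52 to 0.0064) and the marker genes epb41b (-1.94 to 0.34), klf1 (-1.14 to 0.16) and cldni (-2.74 to 0.10). Deviations of same-numbered arrays from their group means correlated at r = 0.276 over all probe sets and 0.466 over the brighter 7751, but 2 pairs cannot show that the numbers pair the samples. With the replicate block 0 probe sets passed and 2582 had an unadjusted p under 0.05. Signal over background limits mdm2 and casp8.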
